A study of Medicago truncatula with 6 samples.

Results

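In root hairs of Medicago truncatula treated with Nod factors (NF), 42 of the 50897 listed genes were grouped as members of a module. All 42 were at or below 0.5 times the water level in every NF library, at 4 h as well as at 20 h of treatment. Members were chosen by a rule on the measured values. The water library had to hold at least 5 CPM (its read pairs scaled to a library total of 1000000), each of the 4 NF libraries at most 0.5 times the water value, and the higher NF 20 h library more than 0.6 times the lower NF 4 h library. Of 12611 genes at 5 CPM or more in water, 47 met the first limits. Of these, 2 were below the limit set by NF 4 h, and 3 were left out because the study lists them as ion transport or redox genes. What the rule used is described here without a test, which covers every comparison of NF with water and of NF 20 h with NF 4 h in these genes, and calls from fits over all genes are given as counts only.

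The material was root hairs pooled from 100 plants per sample, aged 5 days, of the wild type genotype A17 grown in vitro on Fahraeus medium. Roots were treated with NF for 4 h (2 replicates) or 20 h (2 replicates), or with water, labelled 4 h, as the control. NF 20 h is set against this same water library, so the effect of NF and that of the longer treatment time cannot be told apart in its values. Polyadenylated RNA was sequenced as read pairs, and 5 libraries were analysed, of 39199411 to 47302574 counted pairs each. Control replicate 1 was not analysed here, so each water value comes from control replicate 2 alone and has no replicate error. A level that was high in that water library by itself and a level that was lower under NF cannot be told apart in this design.

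Nod factors are the lipochitooligosaccharide signals of rhizobia, perceived in legumes by receptor kinases with LysM domains at the surface of epidermal cells. In a root hair they set off calcium spiking and a transcriptional programme with factors such as NIN, and the hair tip swells, branches and curls. Many genes known for this response are induced by it. Of the 42 members, 18 carry an annotation, and they are described by family.

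Marker genes matched the labels. ENOD11, an early nodulin gene of the epidermis, had 8.05 and 2.88 CPM in NF 4 h and 50.6 and 50.2 CPM in NF 20 h, against 0.0439 CPM in water. The 7 root hair markers examined summed to 1080, 1310, 1073 and 1491 CPM in the NF libraries, against 1011 CPM in water, and each was detected in every library. The stele gene SUNN was between 0 and 0.148 CPM in the NF libraries, against 0.154 CPM in water. In bulk samples such as these, fewer cells of a type and less RNA per cell cannot be told apart.

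Summed over the 42 members, NF 4 h root hairs held 226 and 331 CPM and NF 20 h root hairs 222 and 283 CPM, against 1002 CPM in water root hairs. The median member stood at 4.18% of the water level in NF 4 h replicate 1, 16.9% in NF 4 h replicate 2, 5.52% in NF 20 h replicate 1 and 18.7% in NF 20 h replicate 2. For all genes at 5 CPM or more in water, the same medians were 97.5%, 99.0%, 101% and 97.9%. Replicate 1 was further below water than replicate 2 at both times. Averaged over replicates, the median member was 8.004-fold lower than water at NF 4 h (log2 ratio −2.998) and 6.96-fold lower at NF 20 h (log2 ratio −2.80), while over all genes at 5 CPM or more the median log2 ratios were −0.02 and −0.00064.

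**Figure D1:**
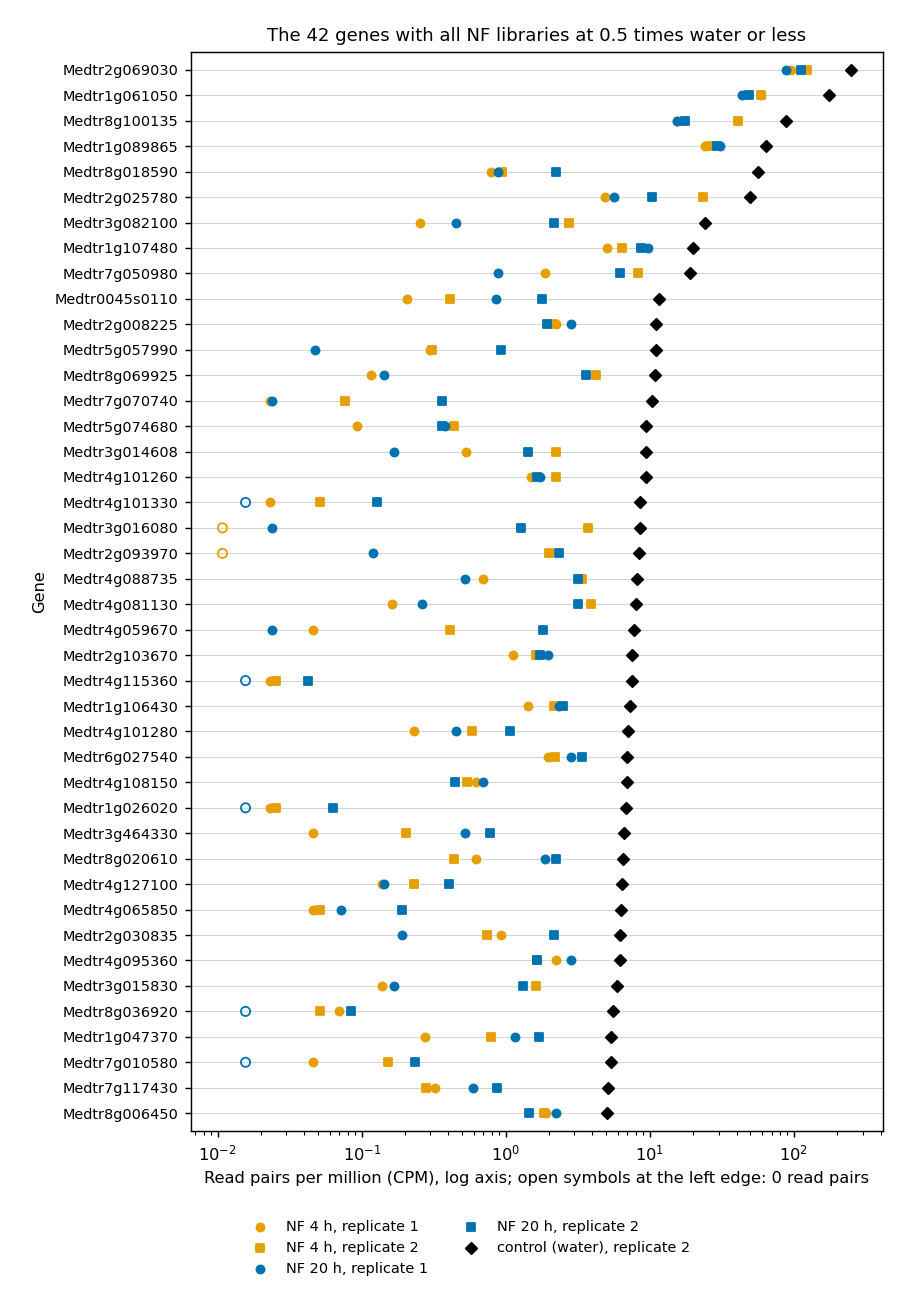
CPM (log axis) of the 42 members in each library, 1 row per gene ordered by the level in water. Circles are replicate 1, squares replicate 2, diamonds the water library, and open symbols mark 0 read pairs. Every NF symbol lies left of the diamond by the rule, and the NF mean runs from 43.0% of water in Medtr1g089865 to 0.303% in Medtr4g115360.

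Most members were weakly expressed. In water, 28 of 42 (66.7%) were under 10 CPM, against 19.2% of all genes at 5 CPM or more. Per kilobase of transcript, the water level of members lay between 1.95 and 159 FPKM. Of 168 NF values, 7 were at 0 read pairs, in 7 different genes. With 3 counts as the floor, the depth reached 0.0634 to 0.0765 CPM, so that values under it stand for at most 3 read pairs.

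Members differed in how little was left. The mean NF level was at most 5% of water in 11 members, over 5% and up to 25% in 22, and over 25% in 9. The 9 genes with most RNA left included the 4 members that were highest in water. The 11 with least left ranged from 5.42 to 56.7 CPM in water, and only 2 of them carry an annotation, a lipoxygenase and a receptor-like kinase.

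The 4 members highest in water kept more of their RNA than most others. Medtr2g069030, a galactose oxidase/kelch repeat protein whose repeats fold into a propeller, had 96.0 and 123 CPM in NF 4 h and 88.8 and 112 CPM in NF 20 h, against 250.5 CPM in water. It was closest of all members to the limit, at 0.491 times water in its highest NF library. Medtr1g061050, a fructose-bisphosphate aldolase, an enzyme of glycolysis and gluconeogenesis, had 59.5 and 59.0 CPM in NF 4 h and 43.8 and 49.0 CPM in NF 20 h, against 176 CPM in water. Its fitted log2 fold change was −1.57 ± 0.14 (SE) at NF 4 h and −1.92 ± 0.14 at NF 20 h. The spread behind this SE comes from the NF replicates, as water had 1 library. Medtr1g061050 was the only member with both NF 20 h libraries below both NF 4 h libraries. The 2 other annotated aldolase genes at 1 CPM or more in water averaged 101% and 106% of water under NF.

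Among oxidative enzymes, 3 members were of different families. Medtr8g018590, annotated as a seed linoleate 9S-lipoxygenase, which adds oxygen to linoleic acid in the path to oxylipins, had 0.784 and 0.944 CPM in NF 4 h and 0.882 and 2.24 CPM in NF 20 h, against 56.7 CPM in water. It was 65.6-fold lower at NF 4 h and 36.3-fold lower at NF 20 h by these means, the deepest decrease of the 14 members at 10 CPM or more after Medtr7g070740. The 7 other annotated lipoxygenase genes at 1 CPM or more stayed between 79.2% and 124% of water. Of these, 4 have locus numbers close to it on chromosome 8 (Medtr8g018420, Medtr8g018510, Medtr8g018550 and Medtr8g018730), with NF averages of 94.0%, 97.4%, 97.8% and 99.7% of water. Since reads that matched several transcripts equally well were discarded, reads shared between near-identical copies are missing from these counts, and the levels of such copies are uncertain.

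Medtr8g100135, a cytochrome P450 family protein, a heme-containing monooxygenase, had 15.5 and 40.7 CPM in NF 4 h and 15.5 and 17.5 CPM in NF 20 h, against 88.6 CPM in water. Its NF 4 h replicate 2 stood apart from the other NF libraries, which lay close together. Medtr1g089865, a 2OG-Fe(II) oxygenase, of the enzymes that use 2-oxoglutarate and iron to hydroxylate small molecules, had 24.1 and 26.1 CPM in NF 4 h and 30.8 and 29.5 CPM in NF 20 h, against 64.2 CPM in water. Here the replicates were close and the NF 20 h libraries were both above the NF 4 h libraries.

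Lipid transfer proteins are small secreted proteins that bind lipids and serve in building the cuticle and suberin. Of 11 genes so annotated at 1 CPM or more in water, 3 were members. Medtr3g082100 had 0.254 and 2.76 CPM in NF 4 h and 0.453 and 2.18 CPM in NF 20 h, against 24.3 CPM in water, so that replicate 2 was 10.9 times replicate 1 at NF 4 h and 4.81 times at NF 20 h. Medtr4g101260 had 1.50 and 2.22 CPM in NF 4 h and 1.72 and 1.65 CPM in NF 20 h, against 9.37 CPM in water. Medtr4g101280 had 0.231 and 0.587 CPM in NF 4 h and 0.453 and 1.08 CPM in NF 20 h, against 7.08 CPM in water. The 8 other annotated lipid transfer protein genes averaged 86.2% to 147% of water under NF.

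Both of these chromosome 4 genes lie near Medtr4g101330, and the 3 are the only members within 100 locus numbers of another member. Medtr4g101330, which carries no annotation in the sources used here, had 0.0231 and 0.0510 CPM in NF 4 h and 0 and 0.127 CPM in NF 20 h, against 8.53 CPM in water. Its NF 4 h libraries together held 3 read pairs, which is 0.426% of the water level with a 95% counting interval of 0.0875% to 1.25% (exact, conditional on the pairs in both treatments). Between them, Medtr4g101310 had 0 and 0 read pairs in NF 4 h, then 0 and 4 in NF 20 h, against 49 in water, where it was below the limit of 5 CPM. Medtr4g101340, next to it, had 0 read pairs in every library, and in the nearest expressed genes on either side at least 1 NF library was above water. Medtr4g101245 had 246 and 232 read pairs in NF 4 h, then 219 and 340 in NF 20 h, against 209 in water. Medtr4g101380, a peptide/nitrate transporter gene, had 798 and 849 read pairs in NF 4 h, then 1976 and 1360 in NF 20 h, against 1392 in water.

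**Figure D2:**
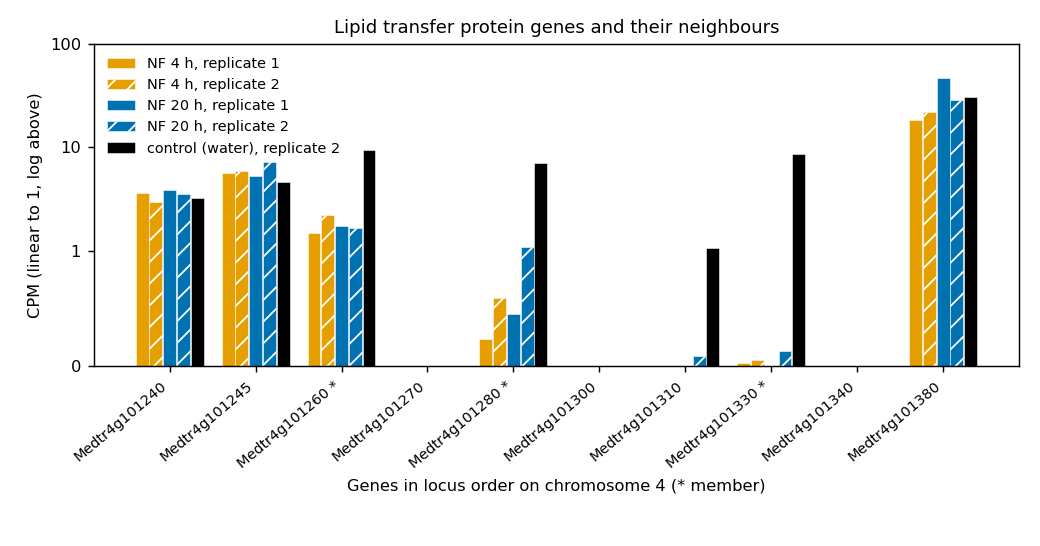
CPM (linear up to 1, log above) of 10 consecutive listed genes on chromosome 4 in locus order, with bars for both NF 4 h libraries, both NF 20 h libraries and the water library, and members marked by an asterisk. The 3 members and Medtr4g101310 have their tallest bar in water, while Medtr4g101240 and Medtr4g101245 have NF bars near or above it. Medtr4g101380 has both NF 4 h bars below its water bar and its NF 20 h bars near or above it.

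Of the listed genes immediately before or after a member that were not members themselves, 55 were under 1 CPM in water. At 1 to 5 CPM there were 10, of which 5 averaged less than 50% of water under NF: Medtr4g101310 at 1.97%, Medtr2g093980 at 15.1%, Medtr3g014615 at 18.4%, Medtr7g050950 at 29.5% and Medtr4g059680 at 31.9%, all named after their values were seen. At 5 CPM or more there were 18, with an NF mean of 98.3% of water at the median and 0 at or below 50%. At this level a gene with all NF libraries that low would in most cases have been a member itself. Chromosome 4 held 11 members (26.2%), against 16.2% of all genes at 5 CPM or more.

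Proteins tied to the root cap and to late embryogenesis, a stage in which seeds dry, gave 2 members of the 4 genes so annotated. Medtr4g059670 had 0.0461 and 0.408 CPM in NF 4 h and 0.0238 and 1.82 CPM in NF 20 h, against 7.79 CPM in water. Medtr2g030835, which is outside the rule for named genes and was added after its values were seen, had 0.923 and 0.740 CPM in NF 4 h and 0.191 and 2.16 CPM in NF 20 h, against 6.25 CPM in water. Of the other 2, Medtr2g080260 had 576 and 744 CPM in NF 4 h and 787 and 1315 CPM in NF 20 h, against 511 CPM in water, and Medtr2g080230 was at or below 1.16 CPM in every library. Summed over the 4, the level was 577 to 1320 CPM in the NF libraries, against 525 CPM in water. Root tips had been cut off before the hairs were collected, and the part of root cap cells in these values was not tested.

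Medtr2g093970, a fasciclin domain protein, of a family of adhesive cell surface glycoproteins, had 0 and 1.99 CPM in NF 4 h and 0.119 and 2.33 CPM in NF 20 h, against 8.44 CPM in water. The annotated fasciclin genes were looked at together after these values had been seen. At 1 CPM or more in water there were 12, and 9 of them averaged 5.72% to 24.4% of water under NF. The 8 outside the module ranged from 1.73 to 4.83 CPM in water, under the limit of 5 CPM. In all 9, replicate 2 was above replicate 1 at both times. This held for 66.7% of the members and for 36.3% of all genes at 5 CPM or more in water. Medtr2g093980, which stands beside the member on chromosome 2, had 0 and 0.969 CPM in NF 4 h and 0.0715 and 1.18 CPM in NF 20 h, against 3.68 CPM in water. The other 3 family members were abundant and averaged 94.8% to 115% of water under NF. Of these, Medtr2g090765 and Medtr5g098420 also had replicate 2 above replicate 1 at both times, and Medtr7g106760 did not. Because the family was singled out by its values, no test is given.

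**Figure D3:**
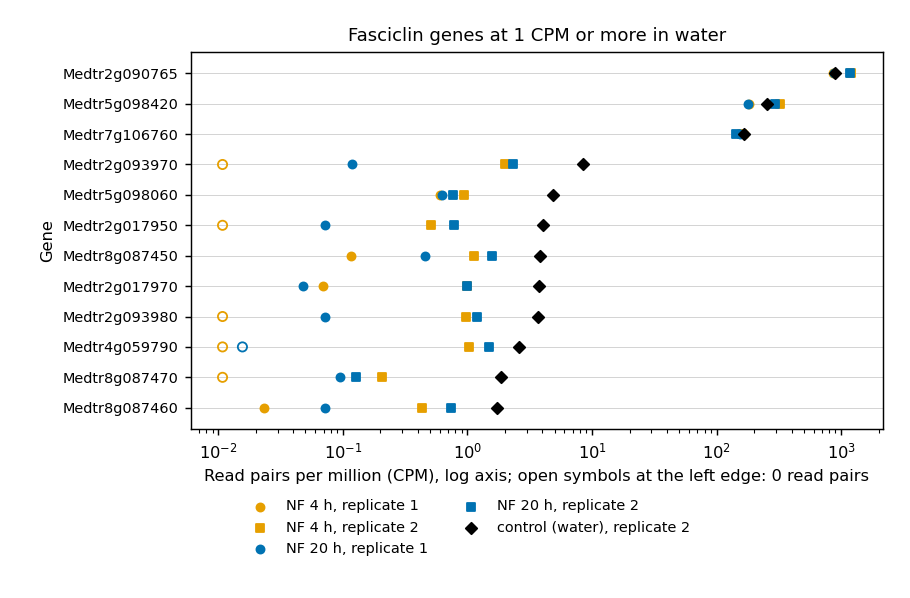
CPM (log axis) of the 12 annotated fasciclin genes at 1 CPM or more in water, 1 row per gene. Circles are replicate 1, squares replicate 2, diamonds water, and open symbols 0 read pairs. In the 3 abundant genes at the top the NF symbols surround the water value, and in the 9 genes beneath them every NF symbol is to the left of it.

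Of signalling proteins, Medtr4g065850, a leucine-rich repeat (LRR) receptor-like kinase, a class of cell surface receptors, had 0.0461 and 0.0510 CPM in NF 4 h and 0.0715 and 0.190 CPM in NF 20 h, against 6.32 CPM in water. Each NF 4 h library held 2 read pairs, against 288 in water. Medtr8g020610, annotated as the auxin-binding protein ABP19a after proteins first described in peach, had 0.623 and 0.434 CPM in NF 4 h and 1.86 and 2.22 CPM in NF 20 h, against 6.51 CPM in water. Its level at NF 20 h was above that at NF 4 h in every library, at 31.5% of water against 8.18% (pooled counts). The 46 other annotated LRR receptor-like kinase genes at 1 CPM or more had a median of 100% of water under NF. Their range was 41.9% to 718%.

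Medtr3g014608, Medtr3g015830 and Medtr3g016080, on chromosome 3, are annotated as putative transmembrane proteins. Medtr3g016080 had 0 and 3.75 CPM in NF 4 h and 0.0238 and 1.27 CPM in NF 20 h, against 8.51 CPM in water. Medtr3g014608 had 0.531 and 2.22 CPM in NF 4 h and 0.167 and 1.44 CPM in NF 20 h, against 9.37 CPM in water. Medtr3g015830 had 0.138 and 1.63 CPM in NF 4 h and 0.167 and 1.31 CPM in NF 20 h, against 5.94 CPM in water. All 3 were over 2-fold higher in replicate 2 than in replicate 1 at both times. For the last, 19.1% of its reads fell outside counted pairs, and for Medtr3g016080 19.6%, against a median of 7.13% over members and 8.14% over genes at 5 CPM or more.

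Medtr2g025780, a hypothetical protein, had 4.89 and 23.5 CPM in NF 4 h and 5.67 and 10.3 CPM in NF 20 h, against 49.9 CPM in water. Medtr2g103670, an embryo-specific protein and the last annotated member, was named after its values were seen. It had 1.13 and 1.63 CPM in NF 4 h and 1.95 and 1.73 CPM in NF 20 h, against 7.50 CPM in water.

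The other 24 members carry no annotation in the sources used here. Those with the least RNA left, also added after their values were seen, were Medtr4g115360 and Medtr1g026020. Medtr4g115360 had 1 and 1 read pairs in NF 4 h, then 0 and 2 in NF 20 h, against 342 in water. At NF 4 h this is 0.323% of the water level, with a counting interval of 0.0390% to 1.18%, and at NF 20 h 0.299%, with an interval of 0.0360% to 1.09%. Medtr1g026020 had 1 and 1 read pairs in NF 4 h, then 0 and 3 in NF 20 h, against 311 in water, or 0.355% of water at NF 4 h with an interval of 0.0428% to 1.29%, and 0.493% at NF 20 h with an interval of 0.101% to 1.45%. Intervals cover counting error only.

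Medtr7g070740 had 1 and 3 read pairs in NF 4 h, then 1 and 17 in NF 20 h, against 471 in water. Medtr5g057990 had 13 and 12 read pairs in NF 4 h, then 2 and 44 in NF 20 h, against 502 in water. In both genes the highest NF library was NF 20 h replicate 2. Medtr0045s0110, on an unplaced scaffold, had 0.208 and 0.408 CPM in NF 4 h and 0.858 and 1.78 CPM in NF 20 h, against 11.5 CPM in water, with no overlap between the NF times. Medtr2g008225 had 2.24 and 2.12 CPM in NF 4 h and 2.86 and 1.94 CPM in NF 20 h, against 11.0 CPM in water, and its NF libraries overlapped. Medtr1g107480 had 5.03 and 6.38 CPM in NF 4 h and 9.70 and 8.63 CPM in NF 20 h, against 19.9 CPM in water. The remaining unannotated genes under 10 CPM in water kept between 0.915% and 37.0% of the water level on average over NF libraries, apart from those named here.

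The NF replicates of many members disagreed. In 14 of 42 (33.3%), replicate 2 was more than 2-fold above replicate 1 at both times, and in 0 the reverse held. Among all genes at 5 CPM or more in water, 57 of 12611 (0.452%) did the first and 18 (0.143%) the second. Members have far fewer read pairs under NF than most of those genes, so the shares are not on an equal footing. With at least 10 read pairs in both replicate 2 libraries, 11 members remained, of 54 of 12600 genes (0.429%) with such counts. That limit was set only on replicate 2, the higher side of the gap, so the shares are still not on an equal footing. Medtr8g069925 had 5 and 165 read pairs in NF 4 h, then 6 and 170 in NF 20 h, against 496 in water. Medtr4g081130 had 7 and 153 read pairs in NF 4 h, then 11 and 149 in NF 20 h, against 365 in water, and Medtr7g050980 had 81 and 326 in NF 4 h, then 37 and 292 in NF 20 h, against 864 in water.

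In the 14 genes, the median was 1.05% of water in NF 4 h replicate 1 and 1.60% in NF 20 h replicate 1, but 23.6% and 18.7% in the replicate 2 libraries of those times. In the 28 others it was 9.68% and 14.5% in replicate 1, and 13.2% and 18.7% in replicate 2. At NF 20 h, the widest gaps included the root cap member Medtr4g059670, where replicate 2 was 76.3 times replicate 1. They also included Medtr3g016080 (transmembrane, 53.2 times), the unannotated Medtr8g069925 (25.1 times) and Medtr2g093970 (fasciclin, 19.5 times). The water library is itself replicate 2. The part of replicate differences in the lower NF values of replicate 1 was not tested.

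**Figure D4:**
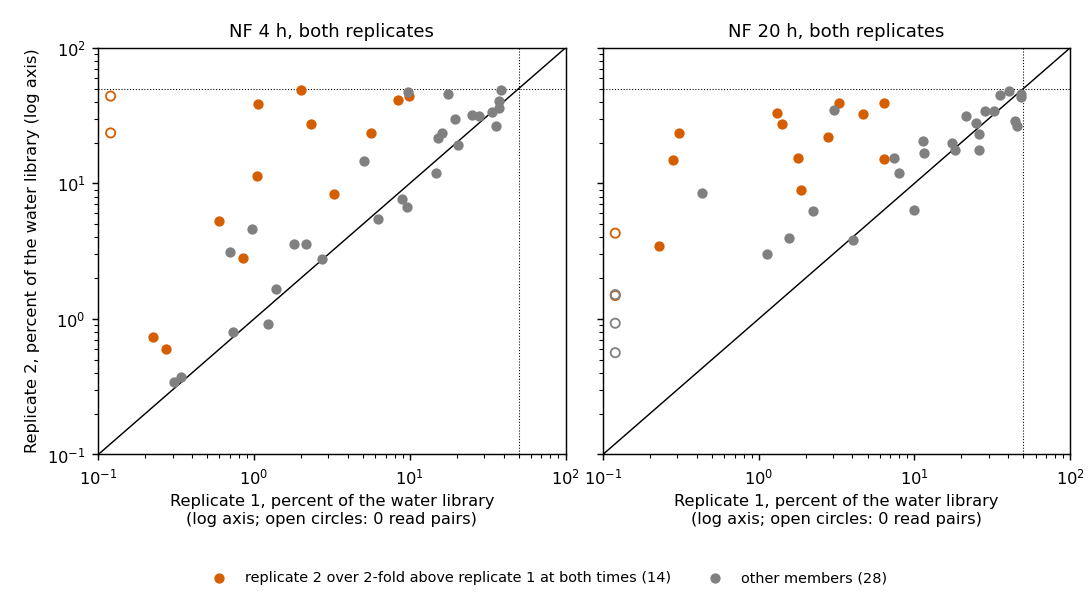
Level of each member as percent of the water library in replicate 1 (x axis) and replicate 2 (y axis), both log axes, at NF 4 h (left) and NF 20 h (right). The line marks equal levels, the dotted lines 50%, and open circles 0 read pairs in replicate 1. The 14 genes in orange lie above the line in both panels, and most of the 28 others lie near it.

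NF 20 h and NF 4 h levels overlapped in 30 members. In 11, both NF 20 h libraries were above both NF 4 h libraries, and in 1, the aldolase, below. The same shares were not counted over all genes, so no time pattern of the members is read from these numbers. By edgeR's quasi-likelihood test with Benjamini-Hochberg adjustment, 0 members were called between the times (0.0498% of all 22091 genes tested), and 8 had an unadjusted p under 0.05 (10.7% of all genes), of which 7 were higher at NF 20 h. DESeq2 and edgeR's exact test called the same 3 (Medtr0045s0110, Medtr3g464330 and Medtr8g020610), all higher at NF 20 h, where they called 3.60% and 4.16% of all genes. Medtr3g464330, named because it was among these 3, had 0.0461 and 0.204 CPM in NF 4 h and 0.524 and 0.782 CPM in NF 20 h, against 6.60 CPM in water.

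Fitted across all 22091 genes that passed a filter on low counts, edgeR's quasi-likelihood test called 18 of 42 members (42.9%) lower in NF 4 h than in control, where 0.158% of all genes were called lower. In NF 20 h it called 14 (33.3%), where 0.371% of all genes were called lower, and 13 were called at both times. The rule chose the members on these contrasts, so nothing is read from these counts. All 42 passed the filter through the water library, and 37 also reached its level in at least 1 NF library. Standard errors of the log2 fold changes ran from 0.14 to 1.90 at NF 4 h and from 0.14 to 1.99 at NF 20 h. Of the 14 genes with the replicate gap, 1 was called at each time, and of the 28 others 17 were called at NF 4 h and 13 at NF 20 h. The test takes its spread from the NF replicates. Fewer calls among genes with a replicate gap were thus set in advance, and nothing is read from the difference.

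**Figure D5:**
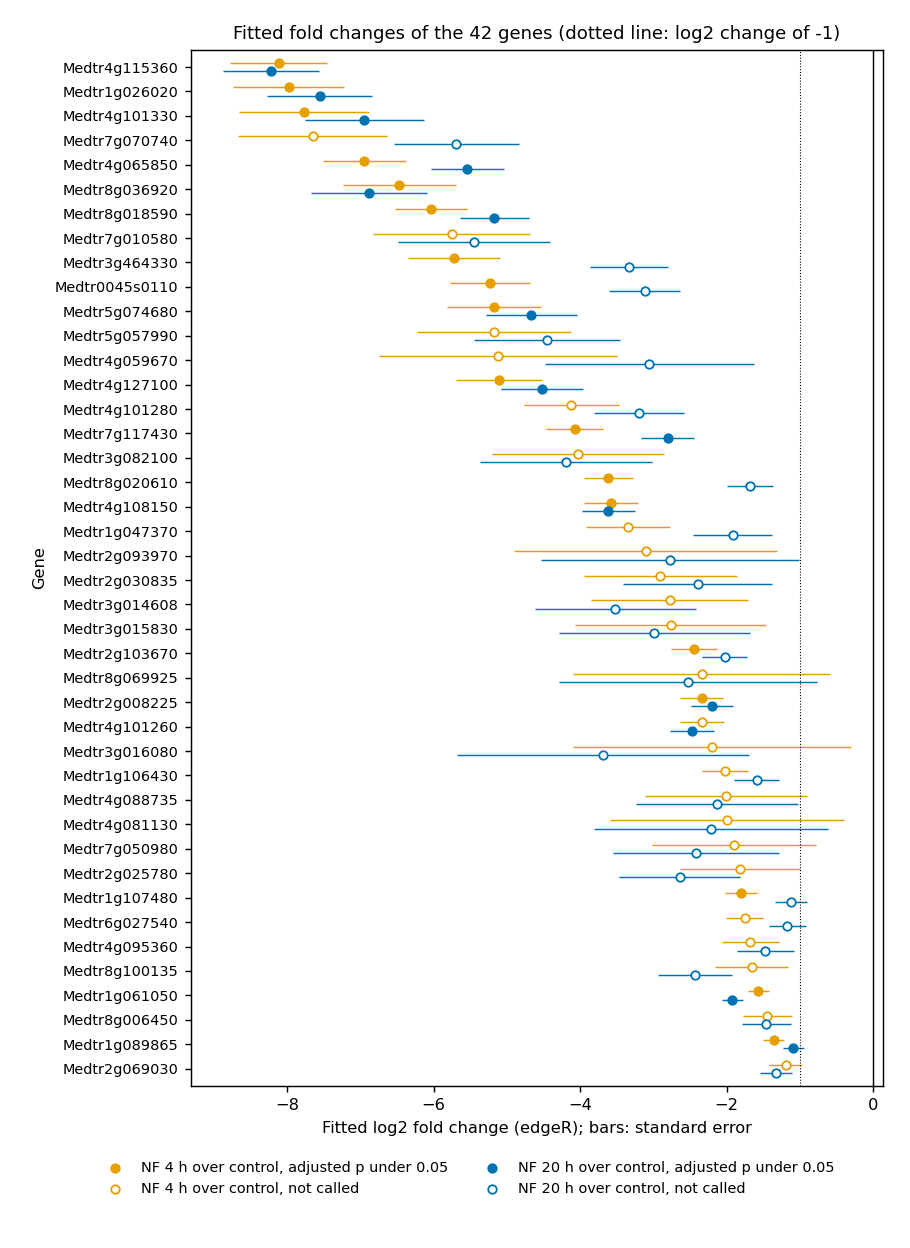
Fitted log2 fold changes of the 42 members for NF 4 h over control and NF 20 h over control, with bars for the standard error and filled points for an adjusted p under 0.05. Values range from −8.11 to −1.19 at NF 4 h and from −8.22 to −1.09 at NF 20 h, and points with a standard error above 1 are all open.

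Just inside the limit of 0.5 were Medtr2g069030 at 0.491 times water in its highest NF library, Medtr4g081130 at 0.488 and Medtr1g107480 at 0.487. Just outside were Medtr4g058970 at 0.522, the short-chain dehydrogenase/reductase gene Medtr4g052320 at 0.525 and Medtr1g080990, the nodulin gene MtN26, at 0.528. MtN26 had 90.7 and 123 CPM in NF 4 h and 54.7 and 67.4 CPM in NF 20 h, against 233 CPM in water. The 2 genes left out for a further decrease were Medtr6g033450, a pathogenesis-related protein of the bet V I family, at 2.54 and 2.68 CPM in NF 4 h and 1.43 and 1.40 CPM in NF 20 h against 9.34 CPM in water, and Medtr3g100500, at 0.0923 CPM or less under NF against 5.64 CPM in water.

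With 5 CPM or more in water, 4061 genes had an annotation in words, among them 18 members (0.443%), and part of these come from lists the study made from these samples. The calls given next are from edgeR's quasi-likelihood test over all genes, unless another test is named. Of all 22091 genes tested, 0.525% were called higher at NF 4 h and 1.10% at NF 20 h. Of the 4061 annotated genes, it called 9 (0.222%) lower and 42 (1.03%) higher at NF 4 h, and 57 (1.40%) lower and 81 (1.99%) higher at NF 20 h. DESeq2 called 40 (0.985%) lower and 207 (5.10%) higher of them at NF 4 h, and 255 (6.28%) lower and 257 (6.33%) higher at NF 20 h. Of 54 genes for lipid transfer, cutin, suberin, root cap and late embryogenesis, 5 were members (9.26%). At NF 4 h, 0 of the 54 were called lower (6 at an unadjusted p under 0.05, 2 by DESeq2 and 3 by the exact test) and 1 higher, and at NF 20 h 1 lower and 1 higher (4 and 4 by DESeq2). Of 362 genes of secondary metabolism, 3 were members, 2 were called lower and 2 higher at NF 4 h, and 13 lower and 8 higher at NF 20 h. By DESeq2 these were 8 lower and 19 higher at NF 4 h, and 50 lower and 28 higher at NF 20 h. Of 310 protein kinase genes 1 was a member, with 1 lower and 4 higher at NF 4 h and 5 lower and 7 higher at NF 20 h. DESeq2 called 1 kinase gene lower and 20 higher at NF 4 h, but 31 lower and 20 higher at NF 20 h, so the balance at NF 20 h turned with the test. Of 110 cell wall genes 1 was a member, with 5 lower and 3 higher at NF 20 h (17 and 11 by DESeq2). At NF 4 h, 0 cell wall genes were called, with 11 lower and 10 higher at an unadjusted p under 0.05, and 5 and 5 by DESeq2.

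Among 66 hormone genes 1 was a member, with 1 called lower and 2 higher at NF 4 h (1 and 5 by DESeq2). At NF 20 h, 2 hormone genes were called higher (6 by DESeq2) and 0 lower (13 lower at an unadjusted p under 0.05, 7 by DESeq2). Among 432 hypothetical or unknown proteins 4 were members, with 8 called higher at NF 4 h (30 by DESeq2), and 1 lower and 12 higher at NF 20 h (14 and 30 by DESeq2). At NF 4 h, 0 of them were called lower (9 at an unadjusted p under 0.05, 0 by DESeq2 and 1 by the exact test).

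No member was found in the other 6 lists. Of 257 transcription factor genes, 5 were called higher at NF 4 h and 10 at NF 20 h, and 0 lower at either time (10 and 39 lower at an unadjusted p under 0.05, 3 and 12 by DESeq2, which called 16 and 28 higher). Of 259 transport genes outside the tables left out, 5 were called higher at NF 4 h and 4 at NF 20 h, while 9 were called lower at NF 20 h and 0 at NF 4 h (23 at an unadjusted p under 0.05, 3 by DESeq2). DESeq2 called 13 of them higher at NF 4 h, and 23 lower and 14 higher at NF 20 h, so that both tests called more lower than higher at NF 20 h. Of 118 defence genes, 1 was called lower and 2 higher at NF 4 h, and 6 lower and 5 higher at NF 20 h. By DESeq2 these were 1 lower and 13 higher at NF 4 h, and 16 lower and 15 higher at NF 20 h. In the lists of 83 protease and protease inhibitor genes and of 49 iron and metal genes, 1 gene each was called lower at NF 20 h, and 1 of the iron and metal genes at NF 4 h. DESeq2 called 0 protease genes lower and 3 higher at NF 4 h and 5 lower and 1 higher at NF 20 h, and of the iron and metal genes 4 lower and 1 higher at NF 4 h and 3 lower and 1 higher at NF 20 h. Of 29 phosphate starvation genes, 0 were called at either time, with 1 lower and 3 higher at NF 4 h and 6 lower and 2 higher at NF 20 h at an unadjusted p under 0.05, and 4 lower and 1 higher by DESeq2 at NF 20 h. The median log2 ratio of the 12 lists lay between −0.07 and 0.09 at NF 4 h and between −0.13 and 0.11 at NF 20 h, against 0.04 and 0.04 over all annotated genes.

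Of the members, 6 (14.3%) are in the study's list of legume-specific genes, against 5.30% of all genes at 5 CPM or more. They are the 3 transmembrane proteins, the fasciclin protein, the LRR receptor-like kinase and ABP19a. A further 5 (11.9%), against 8.04%, are listed as putative orthologs of Arabidopsis root hair genes: Medtr2g069030, Medtr1g089865, Medtr4g059670, Medtr4g101260 and Medtr4g101280. The transcripts of members had a median length of 1555 bases, with a range from 596 to 3581, against a median of 1769 bases for genes at 5 CPM or more.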

How the data were processed

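Poly(A) RNA of pooled root hairs was sequenced in pairs. The deposited counts, made by the authors with Bowtie2 (version 2.0 per the labels) on Mt4.0v1 transcripts, are whole read pairs per transcript, without normalization, after reads matching several transcripts equally well were removed. Deposited counts of single reads and transcript lengths were also read. CPM and FPKM were computed here from pairs, library totals and lengths. Tests were run with edgeR 4.0.16 under R 4.3.3 (library-size scaling, filterByExpr, 1 coefficient per treatment, quasi-likelihood test, Benjamini-Hochberg adjustment, calls at 0.05, 2 residual degrees of freedom from the NF replicates). DESeq2 1.42.0 and other settings were alternatives. The test was checked on simulated counts in which 200 genes had a log2 change of −2 under NF. It recovered 80.0% of them at NF 4 h and 79.5% at NF 20 h. Of its calls, 6.43% were false at NF 4 h and 3.05% at NF 20 h. The simulated libraries were drawn independently, so replicate differences shared between the times were not part of the check. Their spread was set by expression level alone, so single genes with wide replicate gaps, as in many members, were not part of it either. P-values measure the spread between 2 biological replicates per NF time.

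Members and gene lists were chosen with earlier results of these data known. Genes were named by rule: the 10 members highest in water, the 10 with the lowest NF level among those at 10 CPM or more, members within 100 locus numbers of each other, up to 4 per gene list, and those nearest the limit of 0.5. Others were named after their values were seen, as the text says. Annotations in words came from the study's tables. Sequences were not used here, and the RefSeq table at hand shares no identifier with these genes. Tables were made with Python 3.11.15, pandas 2.3.3 and scipy 1.17.1.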

Additional observations from a re-analysis of the deposited data

How the results depend on the processing

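The rule gave 65 genes with a limit of 0.6 times water, 14 with a minimum of 10 CPM and 34 to 86 without 1 NF library. The 86, without NF 4 h replicate 2, held all 42 members. With the replicate 2 libraries only, a setting chosen after seeing the data, it gave 70 genes, 39 of them among the 42, since the limit against NF 4 h then took other libraries. Median log2 ratios lay between −4.22 and −2.58 at NF 4 h, and between −3.75 and −2.42 at NF 20 h, without 1 library of that time. The lower values came from replicate 1 alone.

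Calls moved with the fit. For NF over control, the share of all genes called under each of the settings in this paragraph is not given here. Nothing about the members is therefore read from how these counts changed. The setting with at least 10 counts in every library also took members with fewer counts out of the test. At NF 4 h, 6 members were called with at least 10 counts in every library, 29 with only the groups compared, 31 by the exact test and 0 at an adjusted p under 0.01. At NF 20 h, these gave 7, 29, 33 and 0, with no filter 26 and by DESeq2 23. Without 1 NF library, 17 to 29 were called at NF 4 h and 13 to 29 at NF 20 h; the 29 came without NF 20 h replicate 2 at NF 4 h, and without either NF 4 h library at NF 20 h. Between the times, no filter gave 1, the exact test 3, DESeq2 3, and the fits without 1 library 0 to 1.

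The labels do not say that a replicate number marks a shared batch or day, and with 2 numbered pairs the data cannot settle it. With the replicate block, which leaves 1 residual degree of freedom, 40 members were called lower at NF 4 h (3.18% of all genes), 41 at NF 20 h (5.51%) and 8 between the times (8.84%). Replicate differences correlated between the 2 times across genes at 5 CPM or more (r = 0.658, 12611 genes, which are not independent) and across the members (r = 0.728).

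Fitted log2 fold changes of NF over control for the 25 genes named by rule kept their direction in every alternative that tested them. The rule put every NF library at or below 0.5 times water. That direction was therefore largely set in advance, and nothing is read from it. The water level rests on 1 library, and counts of 3 or fewer limit the genes with least RNA left.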
